A study of Homo sapiens with 6 samples.

Results

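The genes described here encode the initiation and elongation factors of cytosolic protein synthesis. They were taken as every gene with a symbol that begins with EIF1 to EIF6 or EEF and with a probe set annotated to that 1 symbol, leaving out the EIF2AK kinases. Where a gene had several such probe sets, the one with the highest mean was used. The rule gave 59 of the 18404 genes tested. Values are given for 58 of them, because EIF1AY lies on the Y chromosome and is only counted. The symbol rule also took in enzymes that modify elongation factors, binding partners of the cap-binding protein, the non-coding RNA EIF3J-DT and the pseudogene EEF1DP3.

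RNA was taken from PrEC, an immortalized prostate epithelial line of normal origin per the labels, and measured on 6 expression arrays. Cells carried the hairpin shNT, which served as the reference (3 arrays), or a hairpin against PKCλ/ι, titled shPKCi (3 arrays), and were collected under basal conditions at 48 hours from plating. PRKCI encodes PKCλ/ι, which belongs to the atypical protein kinases C, and all arrays share the same parental line and growth medium. The series calls the 3 samples of a line biological replicates, and the labels do not say how many hairpins or clones stand behind each line. The comparison of shPKCi with shNT addresses which transcripts differ when PKCλ/ι is depleted. Their number, 3 arrays per line, limits the precision of every value.

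Translation begins when a small ribosomal subunit carrying eIF1, eIF1A, eIF3, eIF5 and initiator tRNA bound to eIF2 is brought to the capped end of an mRNA by eIF4E, eIF4G and the helicase eIF4A. It scans to a start codon, where eIF5 triggers GTP hydrolysis on eIF2, and eIF5B then joins the large subunit. The exchange factor eIF2B recharges eIF2 for the next round. During elongation eEF1A delivers aminoacyl-tRNAs, the eEF1B complex recharges eEF1A, eEF2 moves the ribosome on and eIF5A helps it past difficult peptide bonds. In epithelial cells eIF2 and the eIF4 factors are known as the points at which stress and growth signals set the rate of translation.

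Many of the mRNAs for ribosomal proteins and elongation factors begin with a cytosine followed by an uninterrupted run of pyrimidines, the terminal oligopyrimidine tract through which growth signals control their translation. The RefSeq promoter table (GRCh38.p14) held 45 of the 58 genes, and 13 of these (28.9%) had at least 1 listed start with such an opening, against 892 of 14229 measured genes in the table (6.27%). The opening was defined as C at the first transcribed base and C or T at each of the next 4, read on the transcribed strand only. The starts are shown because the values are also described by this feature further on. Each line gives 30 bases, 10 before the listed start and 20 from it on, and the capitals mark the first 5 transcribed bases. The first 7 carry the pyrimidine opening.
EIF4A2, chr3:186783567-186783596, plus strand: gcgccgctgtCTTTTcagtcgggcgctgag
EIF4B, chr12:53006446-53006475, plus strand: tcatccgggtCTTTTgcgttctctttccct
EIF3F, chr11:7987327-7987356, plus strand: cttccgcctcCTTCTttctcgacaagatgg
EEF1A1, chr6:73521013-73521042, minus strand: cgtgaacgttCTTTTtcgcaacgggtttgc
EEF2, chr19:3985444-3985473, minus strand: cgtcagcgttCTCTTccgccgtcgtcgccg
EIF3M, chr11:32583821-32583850, plus strand: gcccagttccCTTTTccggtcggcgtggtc
EIF2S3, chrX:24054946-24054975, plus strand: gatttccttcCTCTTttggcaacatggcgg
The following genes open otherwise. They were picked among the genes that rose, each with a single listed start. The display therefore does not show how opening and direction go together. Genes that did not pass, such as EEF1G, EIF1, EIF3I and EIF5B, open otherwise too, as do EIF4E3 and EIF3J-DT, which fell.
EIF2S1, chr14:67360318-67360347, plus strand: gaggttccgcATGCGcggtggagtgagcga
EIF1AX, chrX:20141819-20141848, minus strand: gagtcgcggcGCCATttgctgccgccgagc
EIF2B1, chr12:123633667-123633696, minus strand: gtacggaagtGCGCCggaagtggggtgcgg
EIF2B2, chr14:75002911-75002940, plus strand: cgcccgccccGGAAGtgcaaactgtgtggt
EIF3B, chr7:2354817-2354846, plus strand: tcgcacgcacATGGCtgggctgtagccgtc
EIF3J, chr15:44537137-44537166, plus strand: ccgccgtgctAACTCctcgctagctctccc
EIF5A2, chr3:170908618-170908647, minus strand: cccgtctcttGGAACtgccgcggccgccac

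The array of shNT replicate 2 stood apart from the rest. Over all genes it correlated with the other arrays at 0.974 to 0.989, while the remaining 5 correlated with each other at 0.982 to 0.996. Its log2 values had an interquartile range of 2.81 over genes, against 2.98 to 3.01 on the other arrays. It was the lowest of the 3 shNT arrays for 35 of the 58 translation factor genes (60.3%), and for 36.7% of all genes. PRKCI, the transcript that the hairpin targets, had log2 values of 10.67, 10.48 and 10.85 in shNT replicates 1 to 3 and of 9.64, 9.66 and 9.56 in shPKCi replicates 1 to 3, with a log2 difference of -1.05 (SE 0.11, limma adjusted p = 0.000279). Of the basal keratins that define the cell type, KRT5 and KRT14 were bright, with mean log2 values of 12.10 and 10.61 in shNT and of 11.83 and 10.28 in shPKCi, while KRT15 was dim at 5.52 and 5.05. The luminal keratins KRT8 and KRT18 were bright as well, at 9.94 and 10.07 in shNT and 10.29 and 10.34 in shPKCi. The luminal genes KLK3, KLK2, ACP3 and MSMB were dim, at 5.33, 5.41, 5.64 and 3.20 in shNT. In shPKCi they were at 5.07, 5.17, 4.63 and 3.23. ACP3 was the luminal gene that fell (log2 difference -1.02, limma adjusted p = 0.00127). Marker lists gave 1 higher (EPCAM) and 5 lower (KRT14, KRT15, ITGB4, CDH3 and TRIM29) of 12 basal epithelial genes (limma). The counts were 0 and 1 of 6 luminal and 0 and 1 of 10 fibroblast and smooth muscle genes. For 9 endothelial and blood genes they were 1 and 1, and for 5 neuroendocrine genes 0 and 1. The mean log2 level of the basal list ran from 9.86 to 9.91 on the shNT arrays and from 9.66 to 9.69 on the shPKCi arrays. That of the fibroblast list ran from 5.06 to 5.33 and from 4.96 to 5.03, that of the luminal list from 6.39 to 6.78 and from 6.37 to 6.50. The endothelial and blood list lay between 4.56 and 4.79 and between 4.61 and 4.70. The neuroendocrine list lay between 5.45 and 5.66 and between 5.14 and 5.19. Its gene that fell was ENO2, with a log2 difference of -1.86 (limma adjusted p = 6.83e-06). CHGA, SYP, NCAM1 and INSM1 had differences of -0.14, 0.23, -0.10 and 0.07 and did not pass, so the lower list mean rests on ENO2. The part of these markers in the results below was not tested. In RNA from whole cultures, fewer cells of a type and less RNA per cell cannot be told apart.

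Of the 58 translation factor genes, 13 were higher in shPKCi and 6 lower at an adjusted p under 0.05 (limma, Benjamini-Hochberg over all genes). Across all genes 9.55% were higher and 8.95% lower. Of the 13 that rose, 11 had EIF names (84.6%), as had 75.9% of the 58 with EIF3J-DT not counted as an EIF name. They were the eIF2 and eIF2B subunit genes EIF2S1, EIF2B1 and EIF2B2, the eIF3 genes EIF3B and EIF3J, the scaffold genes EIF4G1 and EIF4G2, EIF1AX, EIF4E2, EIF5 and EIF5A2. The other two were the methyltransferase genes EEF2KMT and EEF1AKMT1. Those that fell were EIF4A2, EIF4B, EIF4E3, EIF3F, the methyltransferase gene EEF1AKMT3 and the non-coding EIF3J-DT. Of 6 genes of the core elongation cycle (eEF1A, eEF1B and eEF2) 0 passed in limma. At an unadjusted p under 0.05 there were 0 higher and 1 lower, where 29.7% of all genes passed in either direction. The median log2 difference of the 58 was 0.09, with a range from -0.73 to 1.14, and that of all genes was -0.02. The groups did not overlap for 19 of the 58 in the higher direction and 12 in the lower, where 18% and 17.8% of all genes did so.

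Without shNT replicate 2, 15 of the 58 were higher and 8 lower, against 10.5% and 10.6% of all genes, and the 13 and the 6 were among them. EIF2B4 and EIF2B5 joined the higher genes, and EEF1G and EIF3L the lower. Without that array the median log2 difference of the 58 was 0.07 and that of all genes 0.01. Of the 39 genes that did not pass, 27 had a difference that moved by over 1.5 times or changed sign without that array. Of these, 10 changed sign, and of the 19 genes that passed 0 met this rule. Genes that did not pass include very small differences, such as -0.0043 for EEF1A2 and 0.0070 for EEF1A1. There a small shift already meets the rule, so the contrast does not measure how firm the calls are. In the fits that left out 1 array at a time, 12 of the 19 genes passed every time, 10 of them higher and 2 lower. The lower genes numbered 2 without shPKCi replicate 1, and 3 without shPKCi replicate 2 or without shNT replicate 1. Of all genes 1057, 1048 and 1257 were lower in these fits, in that order, and 1648 with all arrays.

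**Figure D1:**
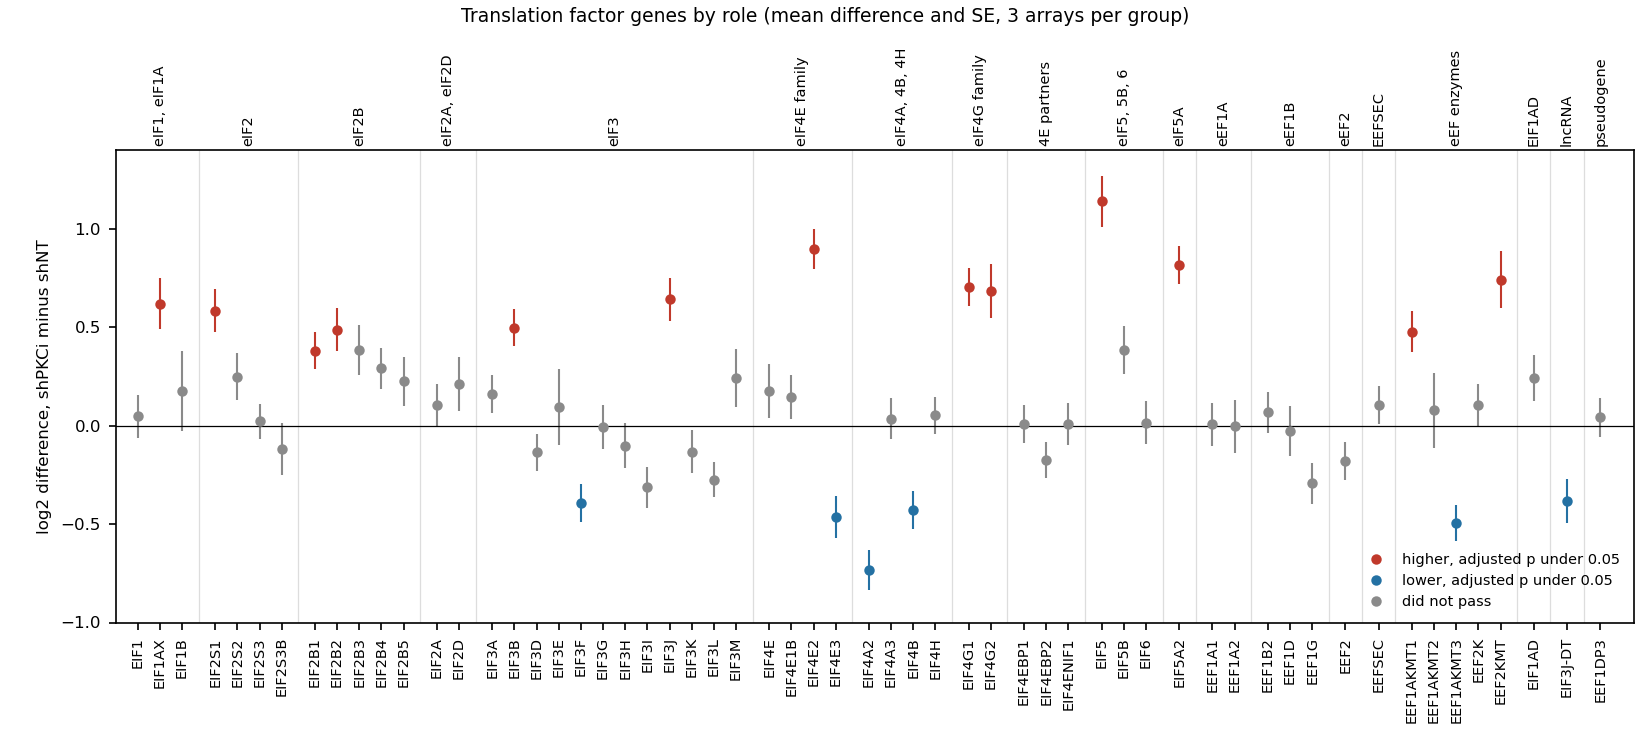
Log2 difference between shPKCi and shNT (vertical axis) for the 58 translation factor genes, ordered by role along the horizontal axis; points are differences of the means of 3 arrays per group and bars are the standard errors from limma. Red marks the 13 genes that were higher and blue the 6 that were lower at an adjusted p under 0.05, with EIF5 at 1.14 and EIF4A2 at -0.73 as the extremes.

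The delivery of initiator tRNA begins with eIF2 and eIF2B. EIF2S1 encodes the alpha subunit of eIF2, which stress kinases phosphorylate. Its log2 values were 10.04, 9.75 and 9.997 in shNT and 10.59, 10.51 and 10.44 in shPKCi, so that all 3 shPKCi arrays lay above all shNT arrays. It rose by 0.58 (SE 0.11, limma adjusted p = 0.00505). EIF2S2, for the beta subunit, had a log2 difference of 0.25 (adjusted p = 0.195) and EIF2S3, for the gamma subunit that binds GTP and tRNA, of 0.02 (95% interval -0.18 to 0.22). EIF2S3B, a copy of EIF2S3 on another chromosome, had a dim probe set and a log2 difference of -0.12. Whether the 3 subunit genes differ from each other in their response was not tested.

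All 5 eIF2B subunit genes had positive differences, from 0.22 to 0.49, and 2 of them passed the test. EIF2B2, for the beta subunit, had log2 values of 8.33, 8.19 and 8.01 in shNT and of 8.61, 8.68 and 8.71 in shPKCi. The groups did not overlap and the gene rose by 0.49 (SE 0.11, adjusted p = 0.012). EIF2B1, for the alpha subunit that senses phosphorylated eIF2, rose by 0.38 (adjusted p = 0.0195). EIF2B3, EIF2B4 and EIF2B5, for the gamma, delta and catalytic epsilon subunits, had differences of 0.38, 0.29 and 0.22 (adjusted p = 0.063, 0.0872 and 0.271). Relative to the mean of the 6 arrays, the average of the 5 subunit genes was -0.10, -0.14 and -0.28 in shNT and 0.19, 0.17 and 0.17 in shPKCi. EIF2B1 passed in 2 of the 6 fits that left out 1 array, with adjusted p up to 0.0919, and with the replicate number as a block its adjusted p was 0.0501. EIF2B2 lost the call without shPKCi replicate 2 (adjusted p = 0.0526). EIF2B3 passed without shNT replicate 1 (adjusted p = 0.0158), EIF2B4 and EIF2B5 without shNT replicate 2 (0.0249 and 0.0386). Each of them passed in 1 of 6 such fits, with adjusted p up to 0.193, 0.245 and 0.566. EIF2A and EIF2D, which can deliver tRNA without eIF2, had log2 differences of 0.10 and 0.21 and did not pass. Without shNT replicate 2 these were 0.02 and 0.06, and that of EIF2S2 was 0.14.

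Among the factors that choose the start codon, EIF1AX rose and EIF1 did not pass. EIF1AX, for the eIF1A that fills the decoding site of the scanning ribosome, had log2 values of 9.75, 9.52 and 9.95 in shNT and 10.50, 10.33 and 10.25 in shPKCi. It rose by 0.62 (SE 0.13, adjusted p = 0.00868), and its other probe set gave a larger log2 difference of 1.04 (adjusted p = 0.00855 among probe sets). EIF1AX has a near-identical copy whose transcript can bind the same probes. EIF1 had log2 values of 11.08, 10.78 and 11.07 in shNT and 11.07, 11.005 and 11.01 in shPKCi, a log2 difference of 0.05 (95% interval -0.20 to 0.29). Its paralog EIF1B had 8.40, 7.53 and 8.36 in shNT against 8.33, 8.24 and 8.26 in shPKCi, where shNT replicate 2 alone lay low. EIF1AD, which encodes a nuclear protein with an eIF1A-like domain, had a log2 difference of 0.24 (adjusted p = 0.2).

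The large complex eIF3 holds the other factors on the small subunit. Of its 12 measured subunit genes 2 rose, 1 fell and 9 did not pass, which is near the shares of all genes (9.55% higher and 8.95% lower), and 5 differences were positive and 7 negative. EIF3J, for the loosely bound subunit that contacts the decoding centre, had 8.18, 7.96 and 8.25 in shNT and 8.79, 8.84 and 8.69 in shPKCi and rose by 0.64 (SE 0.11, adjusted p = 0.00298), or 1.56-fold. EIF3B, for a core subunit that binds RNA, had 8.80, 8.92 and 8.80 in shNT and 9.27, 9.34 and 9.40 in shPKCi, a rise of 0.50 (SE 0.09, adjusted p = 0.00558). The groups did not overlap for either gene, and both passed in each of the 6 fits without 1 array.

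EIF3F was the eIF3 gene that fell, by 0.39 (SE 0.09, adjusted p = 0.0176). Its log2 values were 10.66, 10.51 and 10.54 in shNT and 10.22, 10.11 and 10.19 in shPKCi, again without overlap. Another, dimmer probe set of EIF3F had a log2 difference of -0.54 and also passed (adjusted p = 0.0226 among probe sets). EIF3F passed in 2 of the 6 fits without 1 array, with adjusted p up to 0.0894. EIF3I and EIF3L had differences of -0.31 and -0.27 (adjusted p = 0.0677 and 0.0638) without overlap between the groups. EIF3L passed in 1 of the 6 fits without 1 array, that without shNT replicate 2 (adjusted p = 0.0298), with adjusted p up to 0.176. EIF3D, EIF3H and EIF3K had differences of -0.14, -0.10 and -0.13, EIF3G of -0.0081, EIF3E of 0.10, EIF3A of 0.16 and EIF3M of 0.24, with adjusted p from 0.317 to 0.975. EIF3E and EIF3M were low on shNT replicate 2, at 10.83 and 11.10, against 11.42 and 11.61 and against 11.68 and 11.56 on the other shNT arrays.

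**Figure D2:**
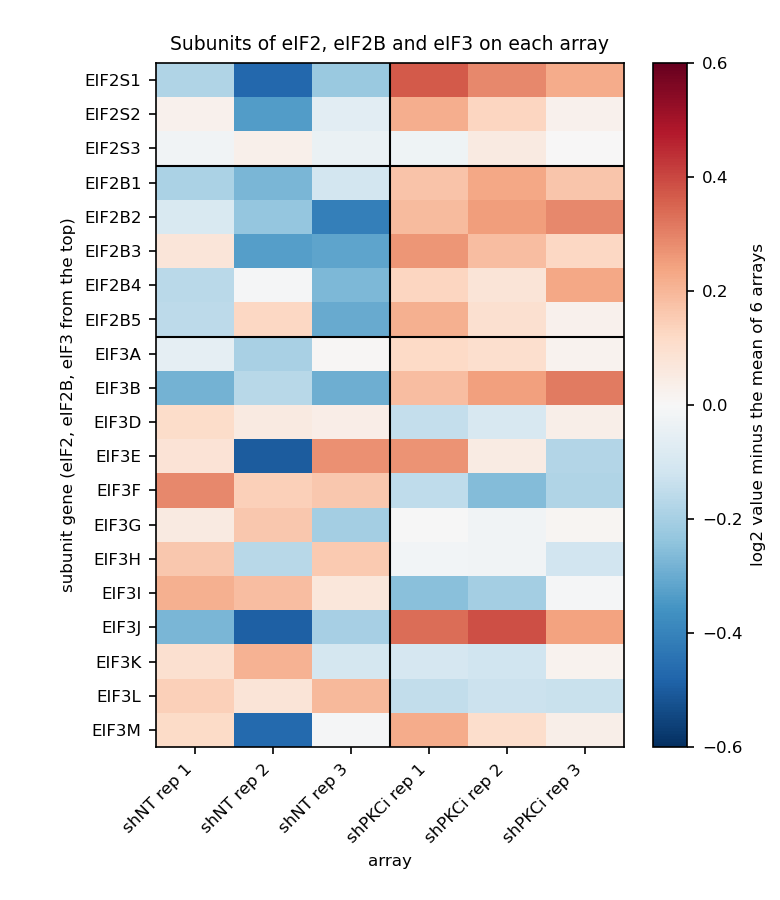
Log2 value of each subunit gene of eIF2 (3 genes, top), eIF2B (5, middle) and eIF3 (12, bottom) on each array, as the deviation from its own mean over the 6 arrays; red is above and blue below that mean. The eIF2B rows are positive on all 3 shPKCi arrays, while the eIF3 rows go both ways, with EIF3B and EIF3J up and EIF3F down.

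EIF3J-DT is a non-coding RNA transcribed away from EIF3J on the opposite strand. EIF3J-DT had log2 values of 6.50, 6.60 and 6.72 in shNT and 6.18, 6.11 and 6.40 in shPKCi and fell by 0.38 (SE 0.11, adjusted p = 0.0408). The groups did not overlap. The call was lost in 4 of the 6 fits without 1 array, where adjusted p reached 0.169, and after median centring of the arrays (0.0691). In RefSeq (GRCh38.p14) the EIF3J start and the nearer of the 2 EIF3J-DT starts lie 224 bases apart. The 223 bases between them are shown because they lie upstream of both listed starts, and their promoter activity in these cells was not measured. They are 74.9% G or C, and the capitals mark 4 matches to GGGCGG on either strand, a motif present in the 300-base promoter of 65.9% of measured genes in the table.
chr15:44536924-44537146, plus strand: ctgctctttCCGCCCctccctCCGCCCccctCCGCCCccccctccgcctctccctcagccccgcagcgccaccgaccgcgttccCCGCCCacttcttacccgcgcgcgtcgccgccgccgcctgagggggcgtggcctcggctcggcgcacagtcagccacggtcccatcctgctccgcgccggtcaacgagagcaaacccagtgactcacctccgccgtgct

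At the mRNA cap both measured scaffold genes rose, EIF4A2 and EIF4B fell among 4 genes of the helicase and its helpers, and among 4 cap-binding genes EIF4E2 rose and EIF4E3 fell. EIF4G1 encodes the scaffold that joins the cap-binding protein, the helicase and eIF3. It had log2 values of 8.11, 8.19 and 8.23 in shNT and 8.79, 8.90 and 8.94 in shPKCi and rose by 0.70 (SE 0.09, adjusted p = 0.000903), or 1.63-fold. EIF4G2, also called DAP5, encodes a relative that lacks the site for eIF4E and serves cap-independent initiation. Its log2 values were 11.23, 10.85 and 11.34 in shNT and 11.91, 11.87 and 11.68 in shPKCi, a rise of 0.68 (SE 0.14, adjusted p = 0.00746). The log2 ratio of EIF4G2 to EIF4G1 averaged 2.97 in shNT (SD 0.26) and 2.95 in shPKCi (SD 0.19; n = 3 each, two-sided exact permutation p = 0.9).

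EIF4E2 encodes 4EHP, a cap-binding protein that does not bind eIF4G and is known mainly for repressing bound mRNAs. Its log2 values were 9.07, 8.96 and 8.80 in shNT and 9.85, 9.82 and 9.85 in shPKCi. It rose by 0.90 (SE 0.10, adjusted p = 0.000339), or 1.86-fold, and the shPKCi arrays lay close together (SD 0.01). EIF4E3, another cap-binding paralog, had 7.65, 7.55 and 7.67 in shNT and 7.0001, 7.16 and 7.32 in shPKCi and fell by 0.46 (SE 0.11, adjusted p = 0.0155). EIF4E3 lost the call in 4 of the 6 fits without 1 array, with adjusted p up to 0.0713.

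The probe set of EIF4E, the general cap-binding protein, was dim, at the 28.6th percentile of all genes. It had log2 values of 5.09, 4.68 and 4.88 in shNT and 5.00, 5.28 and 4.89 in shPKCi, with a log2 difference of 0.17 (95% interval -0.14 to 0.49). Among 6 paralog pairs compared as log2 ratios within arrays, EIF4E2 over EIF4E was higher by 0.72 and EIF4E3 over EIF4E lower, with a difference of -0.64, each with an exact permutation p of 0.1 (0.3 adjusted over the 6 pairs). With 3 arrays per line no smaller p than 0.1 can arise, so this test could call no pair. EIF1B over EIF1 differed by 0.13 (exact p = 1), EEF1A2 over EEF1A1 by -0.01 (exact p = 0.9) and EIF4EBP2 over EIF4EBP1 by -0.18 (exact p = 0.2). Without shNT replicate 2, EIF1B over EIF1 differed by -0.06, EEF1A2 over EEF1A1 by 0.19 and EIF4G2 over EIF4G1 by -0.17, so the first and second of these changed sign. EIF4E1B, a germ-cell relative, had a log2 difference of 0.14 (adjusted p = 0.452).

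The inhibitors that sequester eIF4E showed small differences at the transcript level, and their phosphorylation was not measured. EIF4EBP1 had log2 values of 7.33, 7.10 and 7.21 in shNT and 7.22, 7.22 and 7.24 in shPKCi, with an interval of the difference from -0.21 to 0.23. EIF4EBP2 had 8.99, 8.997 and 9.12 in shNT and 8.82, 8.89 and 8.88 in shPKCi, a log2 difference of -0.17 (adjusted p = 0.248) without overlap. EIF4ENIF1, which carries eIF4E into the nucleus, had a log2 difference of 0.0084.

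EIF4A2 encodes a DEAD-box helicase paralog that has also been tied to silencing by microRNAs, and EIF4B encodes the protein that stimulates the helicase. EIF4A2 had log2 values of 10.35, 10.06 and 10.20 in shNT and of 9.47, 9.47 and 9.47 in shPKCi. It fell by 0.73 (SE 0.10, adjusted p = 0.00111), or 1.66-fold, and passed in each of the 6 fits without 1 array. A second EIF4A2 probe set, much dimmer and listed with a single mRNA, went the opposite way, with a log2 difference of 0.71 (SE 0.18, adjusted p = 0.0251 over all probe sets). With the mean of both probe sets the difference was -0.01 (adjusted p = 0.966), so the direction for EIF4A2 rests on the bright probe set. EIF4B had 12.29, 12.15 and 12.34 in shNT and 11.83, 11.87 and 11.79 in shPKCi and fell by 0.43 (SE 0.10, adjusted p = 0.0127).

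The other EIF4B probe sets had differences of -0.55 and -0.43 with wider errors (SE 0.20 and 0.30). Averaged over its 3 probe sets EIF4B no longer passed (adjusted p = 0.116), nor did it without shPKCi replicate 1 or replicate 3, where its adjusted p reached 0.0519. EIF4H, a smaller helper of the helicase, had a log2 difference of 0.05, and EIF4A3, a helicase of the exon junction complex, of 0.04. Neither passed. EIF4A1, EIF5A and EIF3C were read only by probe sets shared with other genes and were not analysed here.

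**Figure D3:**
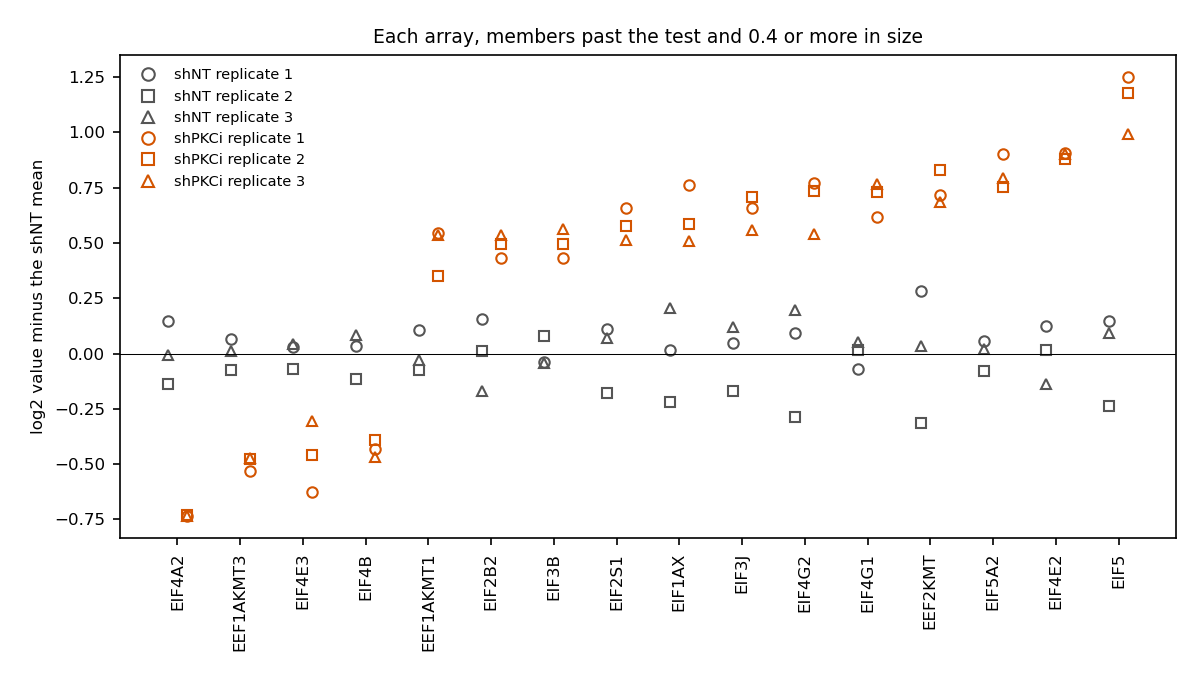
Log2 value on each array minus the mean of the 3 shNT arrays (vertical axis) for the 16 genes past the test with a log2 difference of at least 0.4 in size, ordered from EIF4A2 to EIF5; grey symbols are shNT and orange symbols shPKCi arrays, with 1 symbol shape per replicate number. The groups do not overlap for any of the 16. The lowest shNT array is replicate 2 for most of the genes that rose and for EIF4A2, EIF4B, EIF4E3 and EEF1AKMT3, which fell.

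Of the factors that complete initiation, EIF5 had the largest difference of the 58 genes. It encodes the protein that activates the GTPase of eIF2 at the start codon. Its log2 values were 9.32, 8.93 and 9.26 in shNT and 10.42, 10.35 and 10.16 in shPKCi. It rose by 1.14 (SE 0.13, adjusted p = 0.000335), or 2.20-fold, at the 98.6th percentile of all genes by size. All shPKCi arrays lay above all shNT arrays. EIF5B, for the GTPase of subunit joining, had a log2 difference of 0.38 (adjusted p = 0.0596) without overlap. It passed with genes under the 25th percentile of signal left out (0.0419), with trended robust variance (0.03) and with array weights (0.037). In the fits without 1 array it passed in 0 of 6 (adjusted p from 0.0571 to 0.181). Without shNT replicate 2 its log2 difference was 0.25. EIF6, which keeps free large subunits apart from small ones, had a difference of 0.02 (95% interval -0.23 to 0.26).

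EIF5A2 encodes a paralog of eIF5A, a protein that carries the modified lysine hypusine. It had log2 values of 6.22, 6.08 and 6.18 in shNT and 7.06, 6.91 and 6.95 in shPKCi and rose by 0.82 (SE 0.10, adjusted p = 0.000421), or 1.76-fold. It passed in each of the 6 fits without 1 array. DHPS, the gene of the first hypusine enzyme, went the other way and fell by 0.66 (SE 0.10, adjusted p = 0.00204).

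The 6 genes of the elongation cycle had log2 differences from -0.29 for EEF1G to 0.07 for EEF1B2. EEF1A1 encodes the abundant carrier of aminoacyl-tRNA and had the brightest probe set of the 58. Its log2 values were 13.20, 12.97 and 13.25 in shNT and 13.22, 13.17 and 13.05 in shPKCi, with a log2 difference of 0.01 (95% interval -0.24 to 0.25). EEF1A1 has many processed copies that can share probes, and so bright a probe set can understate a change. EEF1A2, its paralog of muscle and neurons, had 5.70, 6.25 and 6.07 in shNT and 5.998, 5.98 and 6.03 in shPKCi. EEF1G, for the gamma subunit of the exchange complex, had 12.28, 12.04 and 12.22 in shNT and 11.95, 11.80 and 11.92 in shPKCi. Its groups did not overlap, but its log2 difference of -0.29 did not pass (adjusted p = 0.0859). EEF1G passed with cyclic loess (0.0139), with trended robust variance (0.0359) and with array weights (0.00898). Of the 6 fits without 1 array it passed in 1, that without shNT replicate 2 (0.022), with adjusted p up to 0.282. With the replicate number as a block it did not pass (0.112).

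EEF1B2 and EEF1D, for the nucleotide-exchanging subunits, had differences of 0.07 and -0.03. A second, dimmer EEF1D probe set gave a log2 difference of 0.63 (adjusted p = 0.00848 over all probe sets), so the sign for EEF1D depends on the probe set. EEF2, for the translocase, had a difference of -0.18 (95% interval -0.40 to 0.04, adjusted p = 0.263) without overlap. EEFSEC, which delivers selenocysteine tRNA, had 0.11. The pseudogene EEF1DP3 had 0.04.

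**Figure D4:**
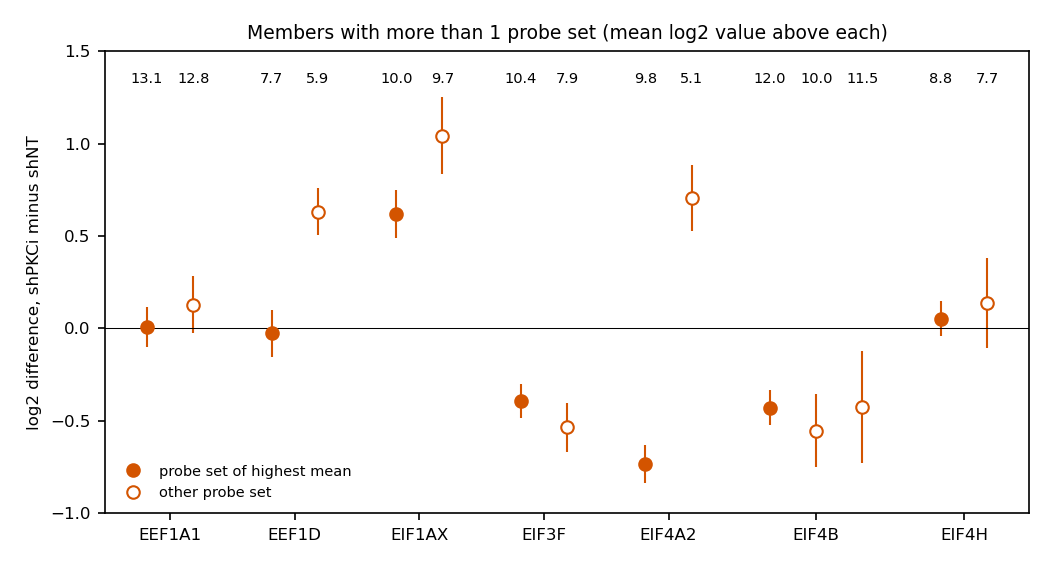
Log2 difference between shPKCi and shNT (vertical axis, with standard errors from limma) for each probe set of the 7 genes that had more than 1; filled symbols are the probe sets used, open symbols the others, and the number above each is its mean log2 value. The probe sets of EIF4A2 lie at -0.73 and 0.71 and those of EEF1D at -0.03 and 0.63, while those of EIF1AX, EIF3F and EIF4B share a sign.

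Enzymes that modify elongation factors moved in both directions. EEF2KMT encodes a methyltransferase of eEF2. It had log2 values of 6.70, 6.10 and 6.46 in shNT and 7.14, 7.25 and 7.10 in shPKCi and rose by 0.74 (SE 0.15, adjusted p = 0.00648). The FAM86 genes are close relatives whose transcripts can bind its probes. EEF1AKMT1, a lysine methyltransferase of eEF1A, had 6.97, 6.79 and 6.83 in shNT and 7.41, 7.21 and 7.40 in shPKCi, a rise of 0.48 (SE 0.10, adjusted p = 0.0104) that was lost without shPKCi replicate 1 (0.0513). EEF1AKMT3, which methylates another lysine of eEF1A, had 5.81, 5.66 and 5.75 in shNT and 5.21, 5.26 and 5.27 in shPKCi and fell by 0.49 (SE 0.09, adjusted p = 0.00515). EEF1AKMT2 had a log2 difference of 0.08, and EEF2K, the kinase that inhibits eEF2, of 0.11 (adjusted p = 0.583).

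Of the 13 genes with a pyrimidine opening 0 rose and 3 fell (EIF4A2, EIF4B and EIF3F), with a median log2 difference of -0.12. At an unadjusted p under 0.05 in limma these counts were again 0 and 3, where 29.7% of all genes passed in either direction. The other 10 were EEF1A1, EEF1B2, EEF2, EIF2A, EIF2D, EIF2S3, EIF2S3B, EIF3D, EIF3K and EIF3M, with differences from -0.18 to 0.24. The median of the 13 is the value of EIF2S3B, a dim copy of EIF2S3 with the opening at 1 of its 2 listed starts. Of the 32 genes with other openings 11 rose and 2 fell, with a median of 0.20. Without shNT replicate 2 the medians were -0.08 and 0.24. Over all measured genes in the promoter table, 56 of 892 with a pyrimidine opening were higher and 114 lower (6.28% and 12.8%), against 10.5% and 9.13% of the 13337 with other openings. The feature was chosen after the values were known, the RefSeq start need not be the one used in these cells, and no test was run on the split. For EIF4A2 the direction again rests on its bright probe set.

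**Figure D5:**
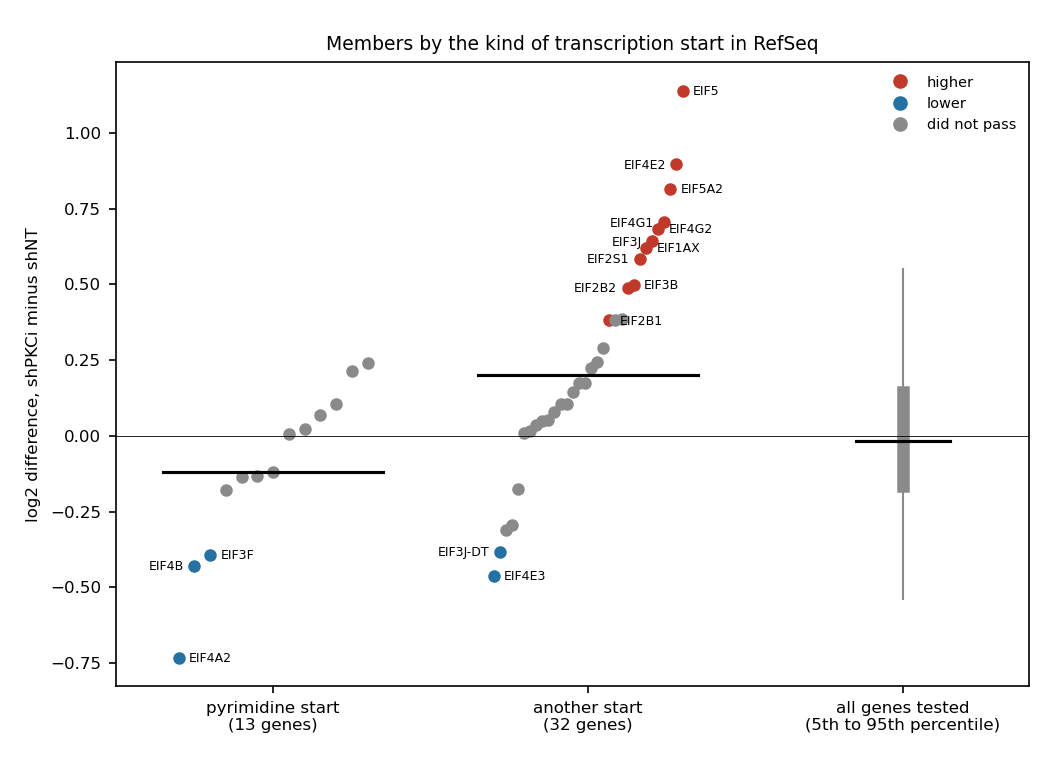
Log2 difference between shPKCi and shNT (vertical axis) for the 13 translation factor genes with a pyrimidine opening at a listed RefSeq start and the 32 with other openings, each group ordered by value, with black lines at the medians of -0.12 and 0.20. The grey bar spans the 25th to 75th percentile of all genes tested and the thin line the 5th to 95th, from -0.54 to 0.55. The median of -0.12 is the value of the dim EIF2S3B.

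Other genes of translation, outside the symbol rule, rose more often than they fell. Of 58 measured genes in 4 lists, 17 were higher and 4 lower, with a median of 0.22, against 9.55% and 8.95% of all genes. Without shPKCi replicate 2 the counts were 10 and 2, and 2 were lower in each fit without 1 array except the fit without shNT replicate 2. Termination and recycling genes gave 4 higher and 0 lower of 11 in limma (5 and 0 at an unadjusted p under 0.05). Of all genes 29.7% had an unadjusted p under 0.05, in either direction. ABCE1, which splits ribosomes after termination, rose by 1.06 (SE 0.20, adjusted p = 0.00577), and the release factor genes GSPT1 and ETF1 both by 0.55. ABCF1, an ATPase that binds eIF2, rose by 0.45. ETF1 lost the call without shPKCi replicate 2 (adjusted p = 0.0596) and ABCF1 in 4 of 6 fits without 1 array (up to 0.0743).

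Regulators of initiation gave 5 higher and 3 lower of 26. GCN1, a partner of the eIF2 kinase GCN2, rose by 0.63 (adjusted p = 0.00205), and the scanning helicase genes DHX29 and DDX3X by 0.82 and 0.48. MKNK2, which encodes a kinase of eIF4E, fell by 0.57 (adjusted p = 0.00246). Enzymes that modify translation factors gave 4 higher and 1 lower of 10, with METTL13, a methyltransferase of eEF1A, up by 0.65 and the diphthamide genes DPH3 and DNAJC24 up by 0.43 and 0.45. DPH3 lost the call without shPKCi replicate 1 and without replicate 2 (adjusted p up to 0.0522), DNAJC24 in 4 of 6 such fits (up to 0.117). Mitochondrial translation factors gave 4 higher and 0 lower of 11 in limma (6 and 0 at an unadjusted p under 0.05). That unadjusted threshold was passed by 29.7% of all genes, in either direction. All 11 differences were positive. The elongation factor genes GFM1 and GUF1 rose by 0.68 and 0.78, the release factor gene MTRF1L by 0.65 and MTFMT by 0.34, the last passing in 1 of 6 fits without 1 array.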

How the data were processed

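RNA of 6 PrEC samples was read on 1 array each. The authors deposited an intensity per probe set, on a linear scale as judged from the values. The submitters' processing notes name RMA, a method that corrects background, quantile-normalizes and summarises probes. Software, version and genome build are not given in the sources used here. The deposited arrays did not have identical distributions, and the scaling between arrays leaves a change of total mRNA unmeasured. Log2 was taken here, with no filter on low values and no detection calls.

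Of 32321 probe sets, 19158 had 1 gene symbol in the platform annotation, 1388 had several and 11775 were not listed. By Entrez identifier 19128 matched the RefSeq gene table, and 0 symbols changed. All 18404 genes were fitted with limma 3.58.1 in R 4.3.3 (lmFit, eBayes, no covariate), and p-values were adjusted by Benjamini-Hochberg with a threshold of 0.05. The median SE was 0.11. The fit was tested on simulated data with independent noise, few changed genes and no outlying array. That test therefore does not vouch for the calls in these arrays. P-values measure the spread between samples the series calls biological replicates.

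The members, gene lists, roles and paralog pairs were chosen with earlier results of these data known, so counts over them carry no test. Values on every array are given for genes past the test with a log2 difference of at least 0.4, the 3 brightest members and the paralog pairs, and for EIF3F, EIF3J-DT, EIF3E and EIF3M, chosen after their values were seen. Of each further list, up to 4 genes with the smallest adjusted p are named. The lists were regulators of initiation, termination and recycling, factor modification, mitochondrial factors and 5 sets of cell type markers. The alternatives were the replicate number as a block, each array left out, median centring, cyclic loess, a signal filter, other choices among probe sets, trended robust variance, array weights and a threshold of 0.01.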

Additional observations from a re-analysis of the deposited data

How the results depend on the processing

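Leaving out 1 array at a time gave 11 to 15 higher and 2 to 8 lower translation factor genes, 997 to 1935 higher and 1048 to 1959 lower of all genes, and 10 to 16 higher and 2 to 5 lower among the related translation genes. The fewest higher calls in all came without shPKCi replicate 2. At an adjusted p under 0.01, 10 translation factor genes were higher and 2 lower, with 870 and 902 of all genes and 9 and 2 related genes. With arrays centred on their median, 2 related genes were lower in place of 4. Translation factor genes numbered 13 higher and 9 lower with cyclic loess, 15 and 9 with trended robust variance and 16 and 9 with array weights. Of all genes, the counts in these settings were 1673 and 1900, 1992 and 1794, and 2321 and 2336. The brightest probe set set the sign for a pair of genes: with the dimmest one, EIF4A2 had a log2 difference of 0.71 and EEF1D of 0.63. PRKCI passed under every alternative run. The median of the 58 genes ranged from 0.04 with cyclic loess to 0.12 with median centring, and stayed positive under every alternative run. That of all genes also moved, from -0.02 with all arrays to 0.01 without shNT replicate 2.

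Samples with the same number did not deviate together (correlations over genes of 0.121, -0.0579 and -0.183), so the numbers were not taken as pairs. With the replicate number as a block, 12 translation factor genes were higher and 6 lower, with 1537 and 1441 of all genes. The number of arrays and the lack of detection calls limit what can be said of dim genes such as EIF4E and EIF2S3B.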

Other observations

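Short motifs in the 300-base promoters (250 bases before and 50 after each listed start, both strands, in any of a gene's starts) were counted for the same 45 genes. The E-box CACGTG was present in 12 of the 45 (26.7%) and in 10.9% of 14229 measured genes in the table, and among these 12 genes 2 rose (EIF4G1 and EIF5A2) and 2 fell (EIF3F and EIF4B), against 9 and 3 of the 33 without it. The ETS-type motif CCGGAAG was present in 13 of 45 (28.9%) and in 16.8% of the measured genes, with 4 of the 13 higher (EIF2B1, EIF2B2, EIF4E2 and EIF5A2) and 0 lower in limma (4 and 1 at an unadjusted p under 0.05), against 7 higher and 5 lower of the 32 without it. Among all genes 9.55% were higher and 8.95% lower, and 29.7% had an unadjusted p under 0.05 in either direction. The cyclic AMP response element TGACGTCA was present in 1 of 45, EEF2, and in 3.11% of measured genes. GGGCGG was present in 36 of 45 (80.0%) and in 65.9%. Matches of several motifs can lie in 1 promoter and can overlap, and a match is a description of the sequence only. The motifs were chosen after the values were known, and no test was run.

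Genes with a pyrimidine opening that are neither ribosomal protein genes nor members of the list numbered 840, of which 54 were higher and 106 lower (6.43% and 12.6%), with a median log2 difference of -0.04.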
